A study of Sus scrofa with 9 samples.

Results

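SELP and the other endothelial molecules that capture leukocytes were followed in myocardium from 9 porcine hearts. The genes were chosen by name, as 8 selectins, selectin ligands and immunoglobulin superfamily adhesion receptors, with earlier results of these hearts in view. SELP, VCAM1, ICAM1 and PECAM1 each matched 1 of the 25149 genes listed, and all 4 passed the filter on low values. SELE, SELPLG, ICAM2 and MADCAM1 matched no gene by symbol and were not analysed here. Because the choice of genes followed from these hearts, the values of the 4 matched genes are given as a description, with no p-value.

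All 9 donors were female American Yorkshire pigs, 4 to 6 months old and 40 to 50 kg, in which donation after circulatory death was simulated with 15 min of warm ischemia. In the NRP + SCS 2 h group (pigs 24, 25 and 29), normothermic regional perfusion (NRP), which circulates warm blood through the organs inside the donor, ran for 60 min, and static cold storage (SCS) at 4 °C for 2 h followed. In the NRP + HOPE 24 h group (pigs 27, 28 and 30), the same 60 min of NRP preceded 24 h of hypothermic oxygenated perfusion (HOPE) at 8 °C. In the No NRP + HOPE 2 h group (pigs 31, 33 and 34), hearts were procured directly and kept for 2 h on HOPE at 8 °C. Every heart then spent 2 h on a blood-primed normothermic machine perfusion (NMP) circuit, and an apex biopsy was flash frozen at its end. The HOPE device was primed with packed red cells of the donor. Method, duration and temperature of storage changed together between the first 2 groups, and the hearts without NRP differed from NRP + SCS 2 h in NRP, storage method and temperature, so their parts cannot be told apart. The labels name cardiomyocytes as the cell type, but the samples were pieces of myocardium.

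Leukocytes leave the blood in steps, each with its own molecules on the vessel wall. Selectins slow the passing cell, immunoglobulin superfamily receptors such as ICAM1 and VCAM1 hold it through its integrins, and PECAM1 at the junctions between endothelial cells takes part in its passage. P-selectin, the product of SELP, is stored in Weibel-Palade bodies of endothelial cells and in granules of platelets, and reaches the surface within minutes of stimulation without new RNA, so its RNA level is not a measure of the protein at the surface. In most tissues P-selectin is found mainly on venules.

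The values were TPM, in which reads are divided by gene length and each heart is then brought to a total of 1000000. Sequencing depth is unknown, since TPM keep no read counts. The share of TPM on 13 mitochondrially encoded genes ran from 38.2% in pig 30 to 55.3% in pig 27. Log2(TPM + 1) was compared with limma over the 11782 genes that reached 1 TPM in 3 or more hearts. A gene was called when its p, adjusted by Benjamini-Hochberg, was under 0.05 and its log2 fold change was beyond 1 in either direction.

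SELP, the gene of P-selectin (ENSSSCG00000006288), was at 24.8 TPM in pig 24, 34.4 in pig 25 and 15.1 in pig 29 after NRP + SCS 2 h. After NRP + HOPE 24 h it was at 22.8 TPM in pig 27, 33.2 in pig 28 and 26.0 in pig 30. Without NRP it was at 3.25 TPM in pig 31, 9.70 in pig 33 and 1.34 in pig 34. The 3 hearts without NRP lay below all 6 hearts with NRP, while the groups with NRP overlapped. The group means were 24.7 ± 9.65 TPM for NRP + SCS 2 h, 27.3 ± 5.30 for NRP + HOPE 24 h and 4.76 ± 4.38 for No NRP + HOPE 2 h (SD, n = 3 hearts). In bulk tissue, fewer cells of a type and less RNA per cell cannot be told apart. The highest heart, pig 25, held 25.6 times the TPM of the lowest, pig 34.

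VCAM1, which binds leukocyte integrins containing the alpha 4 chain (ENSSSCG00000006862), was at 119, 139 and 114 TPM in pigs 24, 25 and 29. It was at 127, 175 and 184 TPM in pigs 27, 28 and 30, and at 32.9, 62.1 and 123 TPM in pigs 31, 33 and 34. Pigs 31 and 33 lay below every heart with NRP, but pig 34 lay inside the NRP + SCS 2 h range. The means were 124 ± 13.3 TPM for NRP + SCS 2 h, 162 ± 30.6 for NRP + HOPE 24 h and 72.8 ± 46.2 for No NRP + HOPE 2 h (SD, n = 3). Pig 34 thus held the lowest SELP of the 9 hearts beside a VCAM1 level like that of pigs 24 and 27.

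ICAM1, the receptor for beta 2 integrins (ENSSSCG00000013655), was at 20.5, 19.5 and 17.7 TPM in pigs 24, 25 and 29. It was at 19.8, 26.1 and 34.8 TPM in pigs 27, 28 and 30, and at 13.3, 18.7 and 28.5 TPM in pigs 31, 33 and 34. No pair of groups was separated, and the group without NRP held both the lowest heart and the heart next to the highest. The means were 19.3 ± 1.41, 26.9 ± 7.53 and 20.2 ± 7.69 TPM in the same order of groups (SD, n = 3).

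PECAM1, present on endothelium of every vessel type (ENSSSCG00000017277), was at 203, 186 and 234 TPM in pigs 24, 25 and 29. It was at 108, 152 and 203 TPM in pigs 27, 28 and 30, and at 99.7, 206 and 179 TPM in pigs 31, 33 and 34. All groups overlapped, with pigs 27 and 31 lowest in their groups. The means were 208 ± 24.3, 154 ± 47.8 and 162 ± 55.3 TPM (SD, n = 3).

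**Figure D1:**
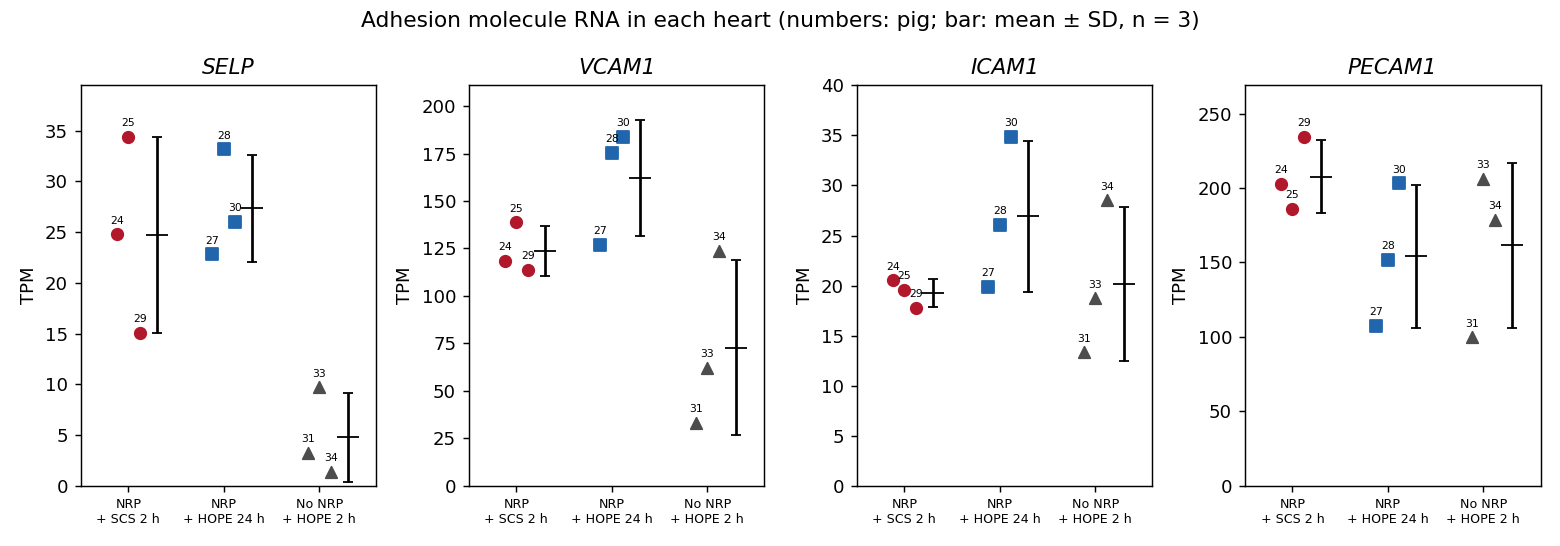
TPM (vertical axes, from 0) of SELP, VCAM1, ICAM1 and PECAM1 in each of 9 hearts by group, with pig numbers; the bar beside each group is the mean ± SD of 3 hearts. SELP in the 3 hearts without NRP sits between 1.34 and 9.70 TPM, below the 15.1 to 34.4 TPM of the 6 hearts with NRP, whereas the groups overlap for ICAM1 and PECAM1.

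On this per-length scale PECAM1 was the most abundant of the 4 in the mean of 9 hearts, at 174 TPM, followed by VCAM1 at 119, ICAM1 at 22.1 and SELP at 18.9 TPM. The order of neighbors depended on the group. PECAM1 lay wholly above VCAM1 after NRP + SCS 2 h, while VCAM1 exceeded PECAM1 in pigs 27 and 28. ICAM1 lay wholly above SELP without NRP, while the ranges of both genes overlapped in each group with NRP. The order among hearts was not shared either. The highest heart was pig 25 for SELP, pig 30 for VCAM1 and ICAM1, and pig 29 for PECAM1, and the lowest was pig 34 for SELP and pig 31 for the other 3 genes. The SD of log2(TPM + 1) over the 9 hearts was 1.39 for SELP, place 117 among the 11782 genes tested, against 0.77 for VCAM1, 0.43 for PECAM1, 0.39 for ICAM1 and a median of 0.43 over all genes. Over the 9 hearts, which share groups and a common TPM total, Pearson's r of log2(TPM + 1) was 0.79 between VCAM1 and ICAM1, 0.60 between SELP and VCAM1, 0.22 between SELP and PECAM1 and 0.18 between SELP and ICAM1.

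The first comparison asked how 24 h on HOPE compared with 2 h in SCS when both followed NRP. The log2 fold change of NRP + HOPE 24 h over NRP + SCS 2 h was 0.20 for SELP (SE 0.47), 0.37 for VCAM1 (SE 0.38), 0.43 for ICAM1 (SE 0.33) and -0.47 for PECAM1 (SE 0.32). Each of these lay within 1.5 SE of 0, and the hearts of the groups overlapped for all 4 genes. None of the 4 was called, against 0.0255% of all genes tested, none passed an absolute log2 fold change of 1, against 3.16%, and none was separated between the groups, against 9.82%. Over all genes the median log2 fold change stood at -0.12, and median-of-ratios scaling moved it to 0.00020. On that scale the 4 values were 0.34 for SELP, 0.52 for VCAM1, 0.57 for ICAM1 and -0.32 for PECAM1, with the same signs. Without pig 29, SELP stood at -0.11, so its sign rested on that heart. VCAM1, ICAM1 and PECAM1 stood at 0.27, 0.23 and -0.69 without pig 30, and at 0.54, 0.62 and -0.23 without pig 27.

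The next comparison set hearts without NRP, kept on HOPE for 2 h, against NRP + SCS 2 h. The log2 fold change of No NRP + HOPE 2 h relative to NRP + SCS 2 h was -2.37 for SELP (SE 0.47), -0.95 for VCAM1 (SE 0.38), 0.0027 for ICAM1 (SE 0.33) and -0.42 for PECAM1 (SE 0.32). SELP was the only one of the 4 separated between the groups, beside 14.7% of all genes, and the only one past an absolute log2 fold change of 1, beside 4.60%. None was called, beside 0.0509% of all genes. Since the genes were chosen with this contrast known, nothing is read from these counts. Leaving out pig 33, the heart without NRP with the highest SELP, gave -2.96 for SELP, and leaving out pig 34 gave -1.86. VCAM1 ranged from -1.43 without pig 34 to -0.49 without pig 31, and ICAM1 from -0.27 without pig 34 to 0.25 without pig 31. PECAM1 ranged from -0.63 without pig 33 to -0.11 without pig 31.

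The hearts on HOPE with and without NRP differed in storage time as well, 24 h against 2 h. The log2 fold change of NRP + HOPE 24 h over No NRP + HOPE 2 h was 2.56 for SELP, 1.32 for VCAM1, 0.43 for ICAM1 and -0.05 for PECAM1, with the same SE as above. SELP and VCAM1 were separated between the groups, beside 7.48% of all genes, and passed an absolute log2 fold change of 1, beside 4.24%. For VCAM1 the groups nearly met, with pig 27 at 127 TPM and pig 34 at 123 TPM. None of the 4 was called, beside 0.0509% of all genes. As in the previous comparison, nothing is read from these counts. SELP stood at 3.15 when pig 33 was left out, and at 2.06 without pig 34. VCAM1 stood at 1.80 without pig 34 and at 0.86 without pig 31. The comparisons share hearts pairwise, so their values are not independent of each other.

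**Figure D2:**
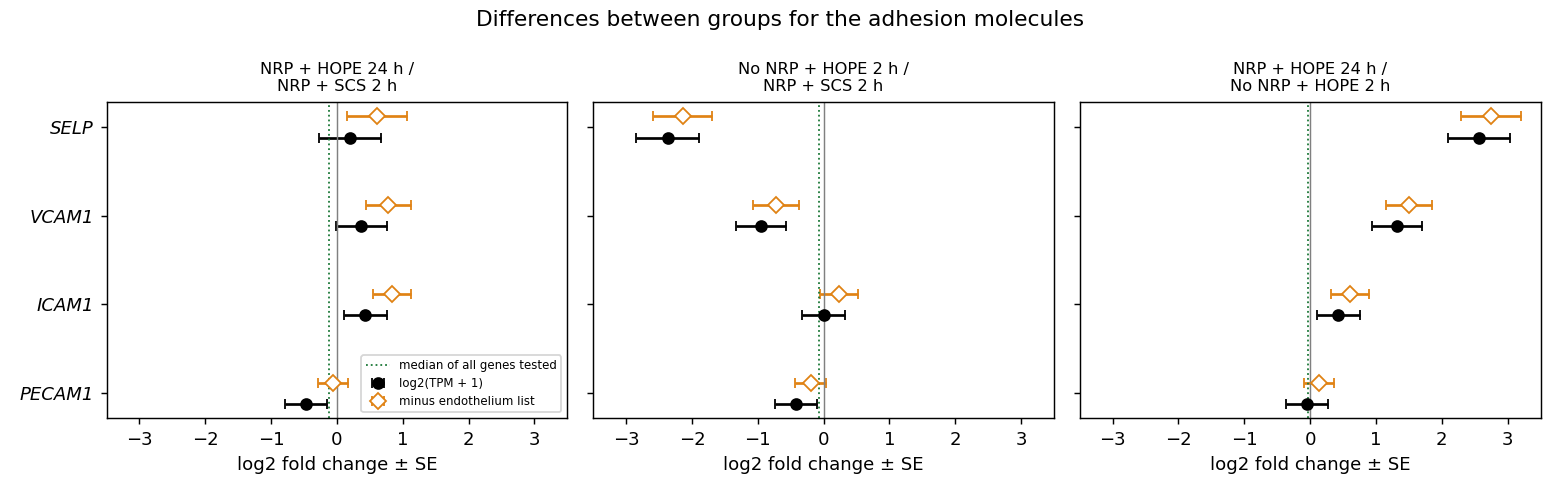
Log2 fold change ± SE (horizontal axes) of the 4 genes in the 3 comparisons, from log2(TPM + 1) in all 9 hearts (filled circles) and after subtracting the mean of 9 endothelial markers in each heart (open diamonds); the dotted line is the median of the 11782 genes tested. SELP lies at -2.37 and 2.56 in the comparisons that involve hearts without NRP, and at 0.20 between the groups with NRP.

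The levels were also read against the endothelium of each biopsy. Of 12 endothelial markers written, 9 matched a gene and none was at 0, with ROBO4 and EGFL7 the most abundant. Their summed level ran from 561 to 728 TPM after NRP + SCS 2 h, from 335 to 695 after NRP + HOPE 24 h and from 342 to 765 without NRP, so the groups overlapped. The mean log2(TPM + 1) of the 9 markers was lowest in pigs 27 and 31, at 4.92 and 5.04, and highest in pig 33, at 6.12. Over the 9 hearts PECAM1 followed this mean with Pearson's r = 0.94, while r was 0.13 for SELP, 0.24 for VCAM1 and 0.35 for ICAM1.

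Relative to the endothelial mean of the same heart, the log2 fold change of No NRP + HOPE 2 h relative to NRP + SCS 2 h was -2.14 for SELP (SE 0.45), -0.72 for VCAM1 (SE 0.35), 0.23 for ICAM1 (SE 0.29) and -0.19 for PECAM1 (SE 0.23). For SELP this stood beside -2.37 on the TPM scale, and the part of endothelial content in the SELP levels was not tested beyond this subtraction. In NRP + HOPE 24 h over NRP + SCS 2 h the same measure was 0.60 for SELP, 0.78 for VCAM1, 0.84 for ICAM1 and -0.06 for PECAM1, higher for each gene than on the TPM scale, because all 9 markers had negative log2 fold changes there (median -0.41). The same subtraction moved the median of all 11782 genes from -0.12 to 0.29 in this comparison, and from -0.07 to 0.15 in No NRP + HOPE 2 h relative to NRP + SCS 2 h, since subtracting 1 mean per heart shifts every gene by the same amount. Per 100 TPM of PECAM1, SELP amounted to 12.2, 18.4 and 6.43 TPM in pigs 24, 25 and 29, to 21.2, 21.9 and 12.8 in pigs 27, 28 and 30, and to 3.26, 4.70 and 0.75 in pigs 31, 33 and 34. The hearts without NRP stayed below the others on this ratio, as did 1.74% of all genes against NRP + SCS 2 h and 6.84% against NRP + HOPE 24 h. ICAM1 amounted to 10.1, 10.5 and 7.58 TPM per 100 TPM of PECAM1 after NRP + SCS 2 h and to 18.4, 17.2 and 17.1 after NRP + HOPE 24 h, and VCAM1 to 58.5, 74.5 and 48.5 and to 118, 116 and 90.4. For both genes the NRP + HOPE 24 h hearts all lay above the NRP + SCS 2 h hearts on this ratio, which they did not in TPM. The same held for 21.5% of all genes, beside PECAM1 levels of 108 and 152 TPM in pigs 27 and 28.

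**Figure D3:**
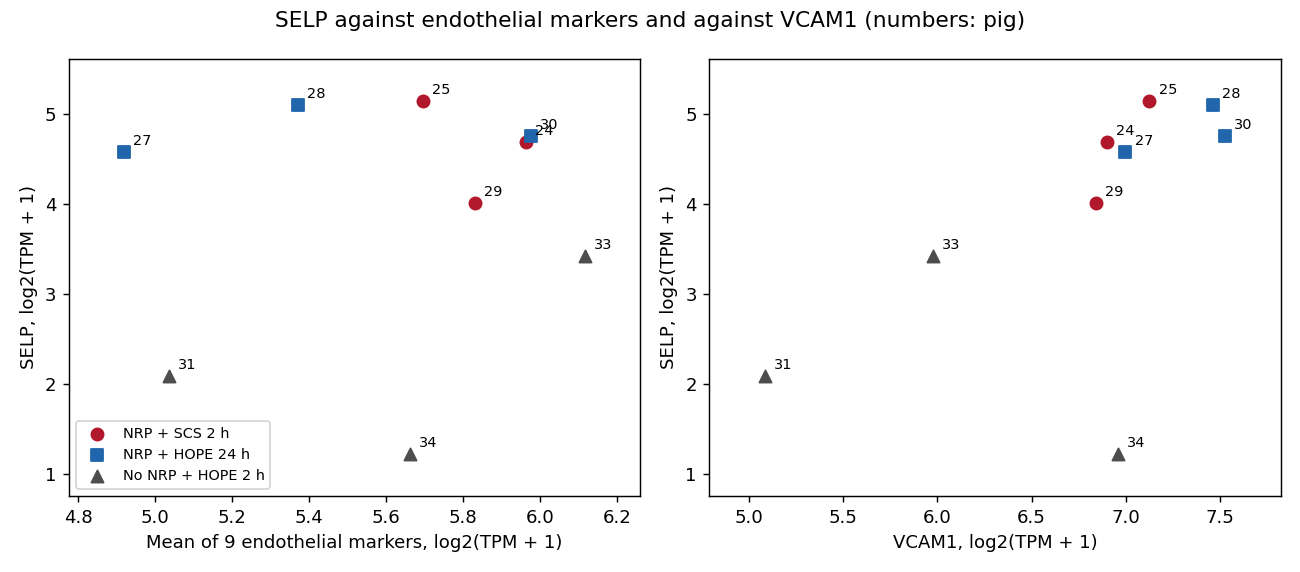
SELP (vertical axes, log2(TPM + 1)) against the mean of 9 endothelial markers (left) and against VCAM1 (right) in each heart, with pig numbers and groups by color and shape. The 3 hearts without NRP lie lowest in SELP across a range of endothelial means from 5.04 to 6.12, and pig 34 combines the lowest SELP with a VCAM1 of 123 TPM.

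Venular endothelium, where P-selectin is mainly found, was covered by 2 of 3 markers written, EPHB4 and NR2F2. Their summed level was 12.7 to 19.4 TPM after NRP + SCS 2 h, 3.83 to 12.9 after NRP + HOPE 24 h and 4.60 to 8.96 without NRP. NR2F2, a transcription factor of venous identity, had a log2 fold change of -1.14 in No NRP + HOPE 2 h and of -0.95 in NRP + HOPE 24 h, each over NRP + SCS 2 h and each with no overlap. Of all genes, 14.7% and 9.82% were separated in these comparisons. EPHB4 stood at -0.81 with no overlap and at -1.09 with overlap, in the same order. SELP was thus low together with these markers in the hearts without NRP, but not in pigs 27 and 28, where NR2F2 was 2.15 and 2.96 TPM and SELP 22.8 and 33.2 TPM. The part of venous endothelium in the SELP levels was not tested.

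Platelets, the other source of P-selectin, had low marker levels. Of 8 platelet markers written, 5 matched, GP6 was listed at 0 in every heart, and the sum of the 5 ran from 3.12 to 4.73 TPM after NRP + SCS 2 h, from 3.96 to 5.97 after NRP + HOPE 24 h and from 4.10 to 6.49 without NRP. GP1BB and ITGA2B, the most abundant, stayed at or below 3.97 TPM, and the group with the lowest SELP did not have the lowest platelet sum. Neutrophil markers were also lowest without NRP, with only S100A9 high enough to be tested and not called. Of 8 written, 5 matched, CSF3R was listed at 0, and their sum was 3.05 to 14.0 TPM after NRP + SCS 2 h, 0.89 to 4.03 after NRP + HOPE 24 h and 0.27 to 0.45 without NRP. S100A8 was listed at 0 in all 3 hearts without NRP and S100A9 in pig 34, where LTF made up the whole sum. In the groups with NRP, which overlapped, the S100A9 means were 4.86 and 1.26 TPM, beside SELP means of 24.7 and 27.3 TPM. Red cell markers, HBB and ALAS2 the most abundant of 3, summed to 71.4 to 133 TPM after NRP + SCS 2 h, 73.9 to 425 after NRP + HOPE 24 h and 222 to 373 without NRP. The part of these cells in the SELP levels was not tested.

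Other cell types overlapped between hearts with and without NRP in most lists. 5 of 7 general leukocyte markers, led by CD53 and LAPTM5, summed to 78.3 to 112, 64.8 to 205 and 84.7 to 165 TPM in NRP + SCS 2 h, NRP + HOPE 24 h and No NRP + HOPE 2 h. In the same order, 3 of 4 T cell markers (CD2, CD247) summed to 3.38 to 9.42, 2.84 to 11.1 and 2.24 to 19.0 TPM, and 4 of 5 monocyte and macrophage markers (CD68, CD14) to 36.2 to 49.3, 21.8 to 44.3 and 30.6 to 36.9 TPM. 3 of 4 fibroblast markers (DCN, LUM) gave 312 to 378, 328 to 429 and 404 to 511 TPM, and the 1 of 4 mesothelial markers matched, WT1, 2.77 to 4.48, 2.91 to 4.07 and 3.67 to 11.5 TPM. 3 of 4 mural cell markers (ACTA2, PDGFRB; MYH11 listed at 0) gave 60.9 to 81.1, 27.1 to 70.3 and 89.4 to 109 TPM, and the hearts without NRP lay above both other groups for the mural sum and above NRP + SCS 2 h alone for the fibroblast sum. Each of these rested on 1 gene, ACTA2 and DCN, since PDGFRB and LUM overlapped between all groups. 4 of 6 cardiomyocyte markers (TNNT2, MYH7) summed to 10279 to 12396, 8736 to 18420 and 10167 to 13385 TPM.

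The rest of the adhesion cascade was covered by 62 genes in 8 lists, of which 52 matched a gene and 44 were tested. None was called in any comparison. At an unadjusted limma p under 0.05 stood 3 of 44 genes (6.82%) in NRP + HOPE 24 h over NRP + SCS 2 h, beside 4.97% of all genes, 1 (2.27%) in No NRP + HOPE 2 h relative to NRP + SCS 2 h, beside 7.22%, and 2 (4.55%) in NRP + HOPE 24 h over No NRP + HOPE 2 h, beside 6.01%. The median log2 fold changes of the 44 were -0.18, -0.11 and -0.03 in that order, next to -0.12, -0.07 and -0.03 over all genes.

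Among the cytokines that induce adhesion molecules, 3 of 7 were tested. IL1A, an alarmin that activates endothelium, was at 1.44, 3.22 and 1.97 TPM in pigs 24, 25 and 29, at 4.65, 13.0 and 9.35 in pigs 27, 28 and 30, and at 1.29, 4.63 and 1.06 in pigs 31, 33 and 34. Its log2 fold change was 1.58 in NRP + HOPE 24 h over NRP + SCS 2 h (SE 0.45, limma unadjusted p = 0.00337 and adjusted p = 0.479) and 1.65 over No NRP + HOPE 2 h (limma unadjusted p = 0.00250 and adjusted p = 0.375), with no overlap in either. The part of IL1A and the other cytokines in the SELP levels was not tested. OSM, whose product raises endothelial P-selectin in culture, had log2 fold changes of 0.59 and 0.60 in the same comparisons, also with no overlap (unadjusted p = 0.0666 and 0.0628, adjusted p = 0.993 and 0.846). TNF, under 3 TPM in every heart, went the other way between NRP + HOPE 24 h and No NRP + HOPE 2 h, at -0.35 with no overlap (unadjusted p = 0.346, adjusted p = 0.971). It was at 1.54, 1.61 and 0.77 TPM in pigs 27, 28 and 30 and at 1.63, 2.495 and 1.64 in pigs 31, 33 and 34, so the groups nearly met. IL4 and IL13 were listed at 0 in every heart.

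Of the receptors for these inducers, 6 of 8 were tested. IL4R, the receptor chain for interleukin 4 and 13, was at 129, 119 and 100 TPM in pigs 24, 25 and 29 and at 53.9, 97.1 and 59.1 in pigs 31, 33 and 34, with a log2 fold change of -0.76 and no overlap (unadjusted p = 0.0433, adjusted p = 0.684). HRH1, the receptor through which histamine triggers release of Weibel-Palade bodies, was at -0.66 in the same comparison with no overlap (unadjusted p = 0.0633, adjusted p = 0.718). Between NRP + HOPE 24 h and No NRP + HOPE 2 h, IL4R stood at 0.65 (unadjusted p = 0.0779, adjusted p = 0.857).

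The Weibel-Palade body list, 9 genes with 6 tested, had no gene at an unadjusted p under 0.05 and no separation of groups in any comparison. With 6 genes and the shares of all genes above, these counts of 0 are not a result about the granule. VWF, the main cargo of the granule in which P-selectin is stored, was at 54.3, 47.1 and 46.4 TPM in pigs 24, 25 and 29, at 28.8, 34.9 and 55.1 in pigs 27, 28 and 30, and at 21.7, 43.5 and 61.6 in pigs 31, 33 and 34. Pig 34 thus held the highest VWF and the lowest SELP. ANGPT2, another cargo, had a log2 fold change of -0.92 in No NRP + HOPE 2 h relative to NRP + SCS 2 h (SE 0.50, unadjusted p = 0.0886), with overlapping groups. RAB3D and SYTL4 were listed at 0 in every heart.

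On the leukocyte side, 5 of 7 integrin chains were tested, and 1 was at an unadjusted p under 0.05. ITGB7, a partner chain of the alpha 4 integrin, was at -0.77 in NRP + HOPE 24 h over No NRP + HOPE 2 h with no overlap (unadjusted p = 0.0331, adjusted p = 0.795), at levels of 0.64 to 3.43 TPM. The gene listed as ITGAX, whose identifier the reference table names ITGAM instead, was at 0.78 in No NRP + HOPE 2 h relative to NRP + SCS 2 h with no overlap (unadjusted p = 0.0563, adjusted p = 0.705). CD44, a selectin-binding adhesion receptor, was at 0.78 in NRP + HOPE 24 h over No NRP + HOPE 2 h with overlap (unadjusted p = 0.0765, adjusted p = 0.857).

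Enzymes that build selectin ligands were tested for 5 of 8 genes, and none reached an unadjusted p under 0.05. FUT4, a fucosyltransferase, stood at -0.62 in NRP + HOPE 24 h over NRP + SCS 2 h with no overlap (unadjusted p = 0.0746, adjusted p = 0.993). In No NRP + HOPE 2 h relative to NRP + SCS 2 h, 4 of the 5 had negative values and 3 of 5 were separated, FUT4 at -0.61, ST3GAL4 at -0.55 and TPST2 at -0.40, beside 14.7% of all genes separated. GCNT1, which branches the glycans that carry them, stood at 0.70 in that comparison with overlap (unadjusted p = 0.0637, adjusted p = 0.718). Among 9 tested of 12 junction genes, NECTIN2, a junctional immunoglobulin receptor, was at 0.65 in NRP + HOPE 24 h over NRP + SCS 2 h with overlap (unadjusted p = 0.0490, adjusted p = 0.993) and at 0.59 in No NRP + HOPE 2 h with no overlap (unadjusted p = 0.0720, adjusted p = 0.732). Of the 5 shedding and anchoring genes, ADAM10, a sheddase of the vessel wall, was at 26.5, 24.6 and 30.3 TPM in pigs 24, 25 and 29 and at 8.49, 14.8 and 18.2 in pigs 27, 28 and 30, a log2 fold change of -0.98 with no overlap (unadjusted p = 0.0177, adjusted p = 0.901).

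**Figure D4:**
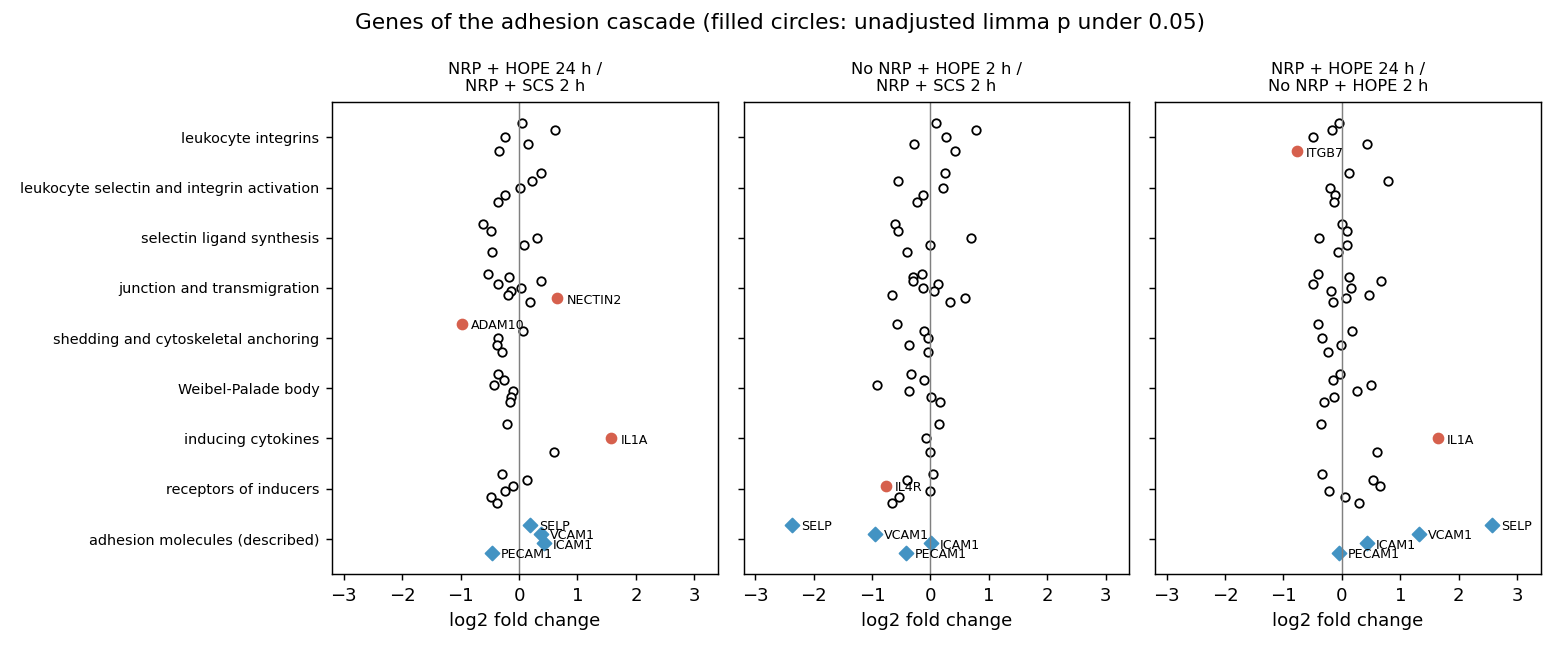
Log2 fold changes (horizontal axes) of the 44 adhesion cascade genes tested, by list, in the 3 comparisons; filled circles have an unadjusted limma p under 0.05, and diamonds show SELP, VCAM1, ICAM1 and PECAM1, which carry no test. IL1A is farthest right among the cascade genes in both comparisons of NRP + HOPE 24 h, and SELP lies beyond all 44 genes in both comparisons with hearts that had no NRP.

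The genes with a symbol most like SELP over the 9 hearts, by Pearson's r of log2(TPM + 1) and among the genes tested, were ACSL4 (r = 0.96), PTX3 (r = 0.96), SFMBT1 (r = 0.93), FRMD4A (r = 0.92) and ADAMTS9 (r = 0.92). PTX3, a soluble pattern recognition protein that inflamed vessel walls make, was at 97.9, 122 and 35.4 TPM in pigs 24, 25 and 29, at 71.9, 104 and 125 in pigs 27, 28 and 30, and at 10.2, 22.9 and 10.5 in pigs 31, 33 and 34. Like SELP, it was lower in the 3 hearts without NRP than in any heart with NRP. ACSL4, an enzyme that activates polyunsaturated fatty acids, ran from 48.0 to 79.8 TPM in hearts with NRP and from 21.5 to 44.9 without. ADAMTS9, a secreted metalloprotease, ran from 27.6 to 58.3 TPM with NRP and from 14.8 to 32.3 without, where pigs 27 and 33 overlapped.

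Among the genes tested that carry a symbol, the lowest correlations with SELP were those of a copy of the small RNA family RF00026 (r = -0.96), MITD1 (r = -0.95), PLAC9 (r = -0.94), FAM50B (r = -0.92) and DNAJB1 (r = -0.92). DNAJB1, a cochaperone induced by heat shock, was at 38.0 to 45.5 TPM in the 6 hearts with NRP and at 310, 123 and 189 TPM in pigs 31, 33 and 34. Pig 33 had the highest SELP and the lowest DNAJB1 of the hearts without NRP. The RF00026 copy was listed at 0 in every heart with NRP and at 2.37, 1.38 and 6.18 TPM in the others, and its reads may be shared with other copies. These correlations describe 9 hearts that share groups and a common TPM total. Chosen after the values were seen, the gene closest to SELP of all 11782 was ENSSSCG00000006286 (r = 0.97), which carries no symbol in the table or the reference. It was at 44.1, 59.0 and 24.2 TPM in pigs 24, 25 and 29, at 28.0, 58.4 and 34.2 in pigs 27, 28 and 30, and at 1.67, 3.38 and 0.57 in pigs 31, 33 and 34. Its log2 fold change was -3.95 in No NRP + HOPE 2 h relative to NRP + SCS 2 h and 3.90 in NRP + HOPE 24 h over No NRP + HOPE 2 h, a description, since the gene was picked for its likeness to SELP.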

How the data were processed

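The authors enriched mRNA from apex biopsies with oligo(dT), trimmed reads (Trimmomatic 0.36), mapped them with STAR 2.5.2b and counted them per gene with featureCounts of Subread 1.5.2, per the submitters' processing notes. They deposited TPM for 25149 genes, 1 column per heart. 9 further columns matched no sample and were not used. The build and gene lengths are not given in the sources used here. No read counts were used, so depth is unknown and precision rests on the spread between 3 hearts per group. TPM are not counts, so log2(TPM + 1) of 11782 genes (at least 1 TPM in at least 3 hearts) was fitted with limma 3.58.1 in R 4.3.3, with 1 mean per group over 9 hearts, a variance trend, two-sided tests and Benjamini-Hochberg adjustment. The fit was tested on simulated data. Genes were matched by symbol, of which 754 came from the reference table. Members and lists were chosen with earlier results of these data known. Named were all members, the 5 cascade genes with the smallest p per comparison, the 2 most abundant markers per list, and the 5 genes most and least like SELP. VWF, TNF, ANGPT2, NR2F2, ST3GAL4, TPST2, LTF and genes listed at 0 were added after their values were seen. Figures were drawn with matplotlib 3.10.9.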

Additional observations from a re-analysis of the deposited data

How the results depend on the processing

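Pigs are not shared between groups. No paired analysis was possible because the groups share no pig number. The 4 adhesion molecules gave 12 log2 fold changes and 156 values under the alternatives, of which 155 moved by less than 1 residual SD between hearts of a group, 13 moved by more than 1 SE of the log2 fold change, and 146 kept their sign. The settings with no filter and with only the 6 hearts compared leave the group means as they are. Their values, which repeat the main ones by construction, are included in these counts. The value past 1 residual SD was ICAM1 in NRP + HOPE 24 h over NRP + SCS 2 h, 0.84 relative to the endothelial mean. The sign changes concerned ICAM1 without NRP against NRP + SCS 2 h, PECAM1 between the HOPE groups and SELP between the groups with NRP. SELP was called without pig 33 in both comparisons with hearts that had no NRP, so the number of adhesion molecules called ranged from 0 to 1 when hearts were left out, a count added after seeing the data and given as a description, since the gene was chosen on these hearts. Pig 33 had the highest SELP of the hearts without NRP, so leaving it out widened the difference. No cascade gene was called under the alternatives run for that count, which did not include the endothelial mean. The number of genes called overall depended more on the setting. In NRP + HOPE 24 h over NRP + SCS 2 h the 3 genes became 0 with a pseudocount of 0.1, 1 with no filter, 60 with array weights and 17 with only the 6 hearts compared, and 0 to 2 when 1 heart was left out. In No NRP + HOPE 2 h relative to NRP + SCS 2 h the 6 genes became 1 with no filter, 19 with median-of-ratios scaling, 19 without mitochondrially encoded genes, 94 with array weights, and 1 to 13 when 1 heart was left out. In NRP + HOPE 24 h over No NRP + HOPE 2 h the 6 genes became 3 with a pseudocount of 0.1, 3 with median-of-ratios scaling, 2 without mitochondrially encoded genes, 14 with array weights, and 0 to 16 when 1 heart was left out. The cause was not tested. Of the 6 genes without NRP against NRP + SCS 2 h, 4 were lower, compared with 15 of 19 after median-of-ratios scaling and 17 of 19 without mitochondrially encoded genes; between the HOPE groups, 4 of 6 were higher, compared with 3 of 3 and 2 of 2. With array weights, 36 of the 60 and 62 of the 94 genes were lower. Groups of 3 hearts and an unknown depth limit every comparison.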

Other observations

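The genes most like ICAM1 over the 9 hearts, read off after the values were seen, included CX3CL1, an endothelial chemokine with an adhesive stalk (r = 0.98), and UBD, a ubiquitin-like modifier induced by inflammatory cytokines (r = 0.96). CX3CL1 was at 15.4, 14.3 and 12.7 TPM in pigs 24, 25 and 29, at 13.5, 17.9 and 33.6 in pigs 27, 28 and 30, and at 6.25, 13.1 and 27.6 in pigs 31, 33 and 34. UBD was highest in pigs 30 and 34 as well, at 91.6 and 83.6 TPM, the hearts with the highest ICAM1. The hearts with the lowest mitochondrially encoded share of TPM were also pigs 30 and 34, at 38.2% and 44.8%, and its part in these levels was not tested.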
